A study of Homo sapiens with 8 samples.

Results

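The stretch of chromosome 10 that holds PTPRE and MKI67 was described from H3K27ac peaks called in human colonic epithelial cells (HCECs) with and without CREBBP. Its members were all merged peak intervals in the bodies of the 2 genes, in the 10.8 kb between them and in the 100 kb on either side, which gave 22 of the 143733 intervals of the whole series. A merged interval is the union of peaks of the 6 libraries that overlap or touch. The locus was chosen because its peaks differed between the genotypes, so the values below describe that difference and are given with no test.

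The study asked how far cells tolerate the loss of single epigenetic regulators, and this experiment measured H3K27ac by ChIP-seq in 3 WT and 3 CREBBP-KO libraries of HCEC-1CT, an established line of colonic epithelial cells immortalized with CDK4 and hTERT. The library titles number the 3 libraries of each genotype and do not say whether each came from an independent population. Both genotypes carry a doxycycline-inducible Cas9, and the CREBBP-KO cells were made from the WT line by transfecting guide RNAs against CREBBP. These CREBBP-KO cells are called monoclonal where the methods describe the ChIP, whereas the account of the lines has several clones of a target, and likewise parental subclones, combined into pools. The effect of the knockout and that of isolating clones cannot be told apart in 1 such comparison.

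H3K27ac is acetylation of a lysine in the tail of histone H3 and marks active promoters and enhancers; CREBBP and its paralogue EP300 are acetyltransferases that place it. PTPRE encodes protein tyrosine phosphatase receptor type E, which removes phosphate from tyrosines of signalling proteins and is made as a long membrane-bound form and, from a start inside the gene, as a short cytosolic form. MKI67, which lies next to PTPRE and is read in the opposite direction, encodes Ki-67, a protein of the mitotic chromosome surface that is widely used as a marker of dividing cells.

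In GENCODE release 44, PTPRE (ENSG00000132334.17) spans chr10:127907103-128085855 of hg38 on the plus strand, 179 kb in all, with 21 exons in its main transcript and 6 protein-coding starts. MKI67 (ENSG00000148773.14) spans chr10:128096659-128126423 on the minus strand, 29.8 kb, with 15 exons and 2 starts. Positions below are distances of an interval's summit from the first PTPRE start, the start of the long form. The start of the short form (ENST00000306042.9) lies 140 kb into the gene.

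The sequences below are those the description turns on: the start of MKI67, the first start of PTPRE, the intron end that the gained interval at the short form covers, and the summits of 2 intervals seen only in CREBBP-KO and of the 1 PTPRE interval seen in every library. Each is written 5′ to 3′ in lower case, with matches to any of 10 short motifs, searched on both strands, in capitals. Those of factors known at enhancers were TGANTCA for AP-1 (the FOS and JUN factors), GGAATG for TEAD (the partners of YAP), TGTTTAC for the forkhead factors, TGTGGT for RUNX and AGATAA for the GATA factors. Those known at promoters were TGACGTCA for CRE (bound by CREB, after which CREBBP is named), CCGGAA for the ETS factors, GGGCGG for SP/KLF (zinc finger factors of GC-rich promoters), CCAAT for NF-Y and TTTGAA for CHR (an element of cell cycle genes). The MKI67 and first PTPRE start sequences are from RefSeq promoters (GRCh38.p14), and the others from the hg38 reference. The first PTPRE start is the 250 bases at chr10:127906853-127907102 on the plus strand, the intron end is the 250 bases before exon 4 at chr10:128047140-128047389 on the plus strand, which stop short of the short-form start at 128047570, and the MKI67 start is the 250 bases at chr10:128126424-128126673 read on the minus strand. The summit windows are 300 bases on the plus strand, in PTPRE intron 1 at chr10:127909034-127909333, in intron 2 at chr10:127991900-127992199 and in intron 10 at chr10:128064344-128064643.
PTPRE first start: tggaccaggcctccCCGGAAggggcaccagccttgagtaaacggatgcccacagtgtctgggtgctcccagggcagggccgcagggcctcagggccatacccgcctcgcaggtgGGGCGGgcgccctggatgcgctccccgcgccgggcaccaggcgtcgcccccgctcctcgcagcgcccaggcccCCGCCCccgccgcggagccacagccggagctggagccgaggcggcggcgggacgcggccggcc
PTPRE intron 1, 2.08 kb: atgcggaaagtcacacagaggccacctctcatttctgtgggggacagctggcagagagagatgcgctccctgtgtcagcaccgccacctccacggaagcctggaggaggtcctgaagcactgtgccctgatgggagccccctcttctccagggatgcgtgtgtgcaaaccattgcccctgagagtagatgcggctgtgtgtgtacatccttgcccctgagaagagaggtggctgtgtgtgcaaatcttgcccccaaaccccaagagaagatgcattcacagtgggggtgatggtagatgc
PTPRE intron 2, 84.9 kb: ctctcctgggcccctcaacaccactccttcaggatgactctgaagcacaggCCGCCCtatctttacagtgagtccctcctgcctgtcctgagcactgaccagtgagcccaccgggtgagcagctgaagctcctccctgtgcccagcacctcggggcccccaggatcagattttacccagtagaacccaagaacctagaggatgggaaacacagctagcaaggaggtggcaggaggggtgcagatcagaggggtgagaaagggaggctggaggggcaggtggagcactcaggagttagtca
PTPRE before exon 4: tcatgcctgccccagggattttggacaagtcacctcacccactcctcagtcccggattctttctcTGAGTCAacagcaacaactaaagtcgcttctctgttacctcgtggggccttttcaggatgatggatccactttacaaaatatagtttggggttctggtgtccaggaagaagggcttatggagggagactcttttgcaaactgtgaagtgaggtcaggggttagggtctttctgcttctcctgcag
PTPRE intron 10, 157 kb: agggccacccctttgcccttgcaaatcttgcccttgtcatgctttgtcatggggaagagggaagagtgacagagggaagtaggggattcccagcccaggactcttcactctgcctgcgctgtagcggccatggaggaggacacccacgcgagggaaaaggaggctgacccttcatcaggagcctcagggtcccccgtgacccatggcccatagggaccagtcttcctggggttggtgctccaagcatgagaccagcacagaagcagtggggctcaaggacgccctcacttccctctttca
MKI67 start: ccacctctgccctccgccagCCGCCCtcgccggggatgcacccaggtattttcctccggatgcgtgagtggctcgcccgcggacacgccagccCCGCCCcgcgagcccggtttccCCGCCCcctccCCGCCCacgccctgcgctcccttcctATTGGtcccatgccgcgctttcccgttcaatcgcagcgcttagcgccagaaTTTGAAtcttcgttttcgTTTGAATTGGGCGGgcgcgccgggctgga

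The MKI67 start held 5 matches to SP/KLF, 2 to NF-Y and 2 to CHR, with the last CHR, NF-Y and SP/KLF matches overlapping in 1 run. Among the 34943 RefSeq promoters searched over the same 250 bases, 42.5% held SP/KLF, 32.0% NF-Y and 13.4% CHR. The first PTPRE start held 2 SP/KLF matches and 1 ETS match, which 14.5% of promoters held, in sequence of 78.4% GC with 28 CpG. The stretch before exon 4 held 1 AP-1 match. No match to the 10 motifs stood in the intron 1 or intron 10 windows, and the intron 2 window held 1 SP/KLF match. A match is a description of letters, and no match says only that these letters are not in that window.

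The whole series is described first by what bears on the locus. The lists held 86163 to 93567 peaks in WT and 99008 to 111697 in CREBBP-KO, so the CREBBP-KO lists were all longer; the part of list length in the counts below was not tested beyond the lists of the same length given in the closing section. They hold no read counts, and the depth behind each list is not given in the sources used here. The peak at the CREBBP start stood in every library, at the 94.8th to 98.6th percentile of its list in WT and the 98.8th to 99.3rd in CREBBP-KO, and a promoter peak cannot check a coding knockout. Of the defining markers, promoter peaks stood in all 6 libraries for 3 of 8 epithelial genes (EPCAM, KRT8 and CLDN7), the intestinal gene MUC2, 7 of 7 mesenchymal genes and 1 of 5 blood genes (CD14), while CDH1, CDX2, HNF4A and VIL1 had none in any library. The mesenchymal peaks lay at the 52.0th to 98.9th percentile in WT and the 74.3rd to 99.9th in CREBBP-KO.

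Across the locus, CREBBP-KO libraries listed several times as many H3K27ac peaks as WT libraries. WT 1, 2 and 3 listed 5, 3 and 4 peaks, and CREBBP-KO 1, 2 and 3 listed 19, 19 and 16. The groups did not overlap, with means of 4 ± 1 peaks in WT and 18 ± 1.73 in CREBBP-KO (SD, n = 3). The peaks covered 9.08, 8.66 and 8.26 kb in WT and 29.9, 31.0 and 31.6 kb in CREBBP-KO.

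Most of the added peaks lay in and before PTPRE. In the PTPRE body each WT library listed 1 peak, covering 1.37 ± 0.175 kb, while the CREBBP-KO libraries listed 10, 10 and 8, covering 18.9 ± 0.26 kb (SD, n = 3). In the 100 kb before PTPRE no WT library had a peak and the CREBBP-KO libraries had 3, 4 and 4. In the MKI67 body the counts overlapped, at 4, 2 and 3 in WT and 5, 4 and 3 in CREBBP-KO, and the covered length was 6.62 ± 0.365 kb in WT against 5.73 ± 0.631 kb in CREBBP-KO. In the 100 kb beyond the MKI67 start each WT library listed 1 peak, the one reaching over that start, and each CREBBP-KO library listed 2. Between the genes no library listed a peak.

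**Figure D1:**
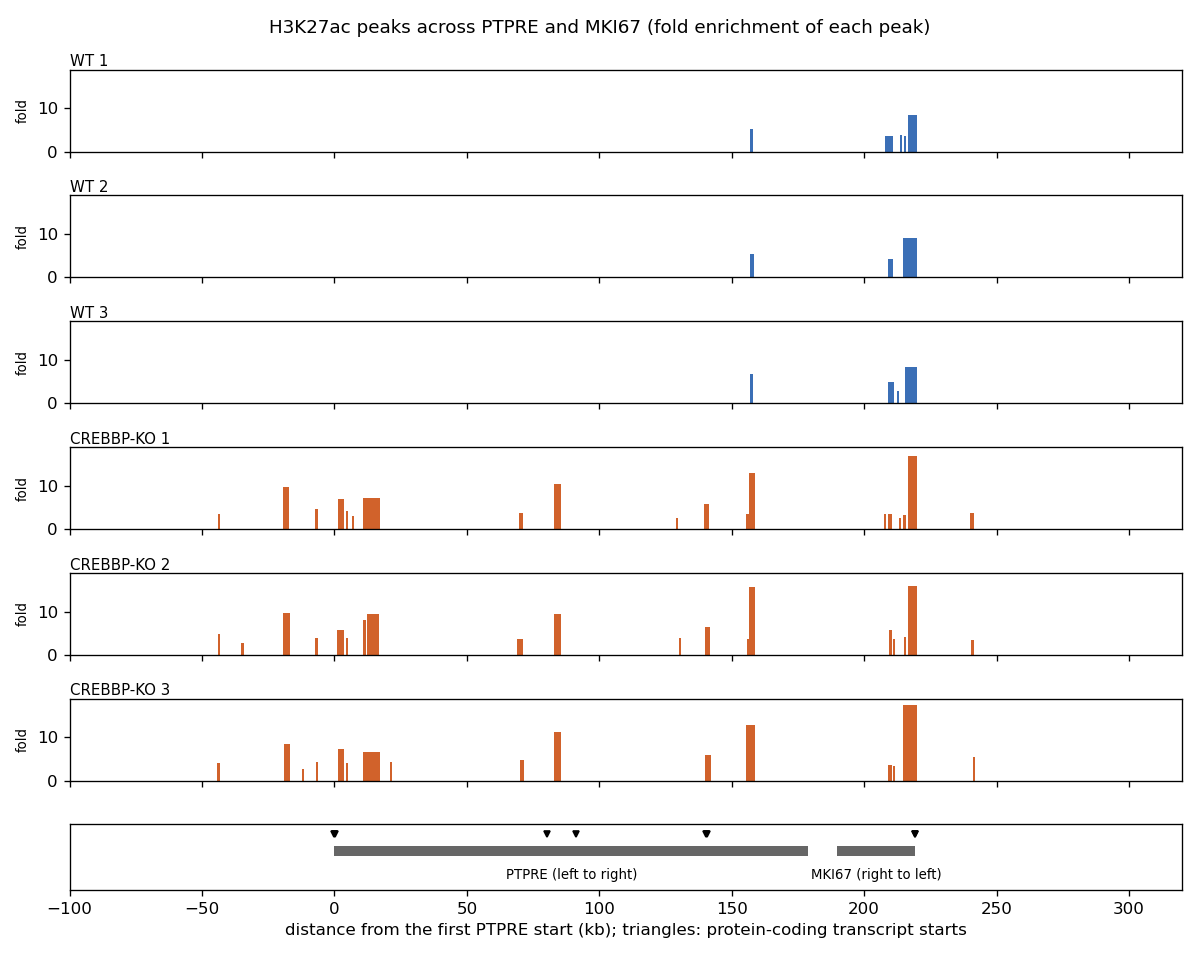
H3K27ac peaks in each of the 3 WT (blue) and 3 CREBBP-KO (orange) libraries, drawn at their width against distance from the first PTPRE start (kb), with bar height giving the fold enrichment of each peak; grey bars are the gene bodies and triangles the protein-coding starts. WT libraries list 3 to 5 peaks, all from intron 10 of PTPRE onward, and CREBBP-KO libraries list 16 to 19, most of them in and before PTPRE.

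Of the 22 intervals, 10 were gained, that is, listed by each CREBBP-KO library and by none of the WT libraries, against 2.66% of all intervals of the series, a share printed for scale since the locus was chosen on this contrast. No interval was lost, the reverse pattern, which 1.08% of all intervals showed. Of the others, 3 had a peak in all 6 libraries, 7 in a single CREBBP-KO library, 1 in a single WT library and 1 in WT 1 and CREBBP-KO 1. In all, 17 had no WT peak. The gained intervals were 493 to 6668 bp wide with a median of 2400 bp, and 6 of them lay in the PTPRE body, 5 with the summit in an intron and 1 in exon 5.

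A stricter class asked for a fold of at least 5 in all 3 CREBBP-KO libraries and no WT peak. Fold is the deposited enrichment of a peak over its local background, and the percentile given with it is the rank of that fold among all peaks of the same library. Both are relative within a library and do not measure total H3K27ac. In CREBBP-KO cells the paper reports a moderate drop of the total by mass spectrometry, of borderline significance. By immunofluorescence it reports a significant decrease, minimal beside the change under a histone deacetylase inhibitor. The stricter class held 5 of the 22 intervals, against 0.293% of the 35542 intervals in the series with this fold in all 3 libraries of a genotype, a filter that 7 of the 22 passed. Just inside the threshold lay the intervals at 2.08 kb, with a lowest CREBBP-KO fold of 5.69, and at the short-form start, with a lowest of 5.84. Just outside, by the lowest CREBBP-KO fold, lay the intervals at −7.03 kb with 3.87 and at 4.61 kb with 3.86. The one upstream of MKI67, at 3.54 to 5.57, was the only other gained interval with a fold over 5 in any library.

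The most highly ranked gained interval was in PTPRE intron 2, 84.9 kb into the gene (chr10:127990028-127992740). Its fold was 10.4, 9.58 and 11.3 in CREBBP-KO 1, 2 and 3, and no WT library listed a peak. These are the 86.6th, 82.9th and 85.7th percentiles, with a mean of 85.1 ± 1.94 (SD, n = 3), the narrowest percentile spread of the 10 gained intervals. In fold its spread was not the narrowest. Its SD was 0.84, where those of the 10 ran from 0.21 at 4.61 kb to 1.49 at 16.5 kb. The 3 summits fell within 208 bp of each other and the deposited −log10 q was 35.3, 32.1 and 47.1. Its window is the intron 2 sequence printed above. It is not at a start: the nearest protein-coding start of PTPRE is 4706 bp before it.

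Intron 1 of PTPRE held 4 gained intervals. Nearest the first start, at 2.08 kb (chr10:127908234-127910712), the fold was 7.05, 5.69 and 7.40 in CREBBP-KO 1, 2 and 3, or a percentile of 72.9 ± 4.97, with summits within 94 bp. A narrow neighbour of 493 bp at 4.61 kb (chr10:127911360-127911852) had folds of 4.28, 3.86 and 4.12, near the middle of each list at 50.1 ± 4.28. All 3 libraries ranked the first of these above the second.

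The widest gained interval lay at 16.5 kb in the same intron (chr10:127917715-127924382). Its highest fold was 7.21, 9.39 and 6.54 in CREBBP-KO 1, 2 and 3, a percentile of 76.9 ± 5.72. CREBBP-KO 1 and 3 each listed it as 1 peak, of 6668 and 6378 bp, and CREBBP-KO 2 as 2 peaks covering 5819 bp. The summits of the highest peaks lay up to 1068 bp apart. The interval at 70.8 kb (chr10:127976200-127978520) was lower, with folds of 3.78, 3.67 and 4.85 and a percentile of 48.4 ± 9.58, with summits within 34 bp. CREBBP-KO 3 was the highest of the 3 libraries there and the lowest at 16.5 kb.

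The start of the short, cytosolic form of PTPRE lay under a gained interval (chr10:128046704-128049284), with the summit in exon 5, 211 bp past that start. The fold was 5.84, 6.52 and 6.02 in CREBBP-KO 1, 2 and 3, percentiles of 70.1, 72.1 and 68.1, and no WT library listed a peak. With 0 for a library without a peak, the PTPRE promoter percentile was 0 in each WT library and 70.1 ± 1.99 in CREBBP-KO (SD, n = 3). This value belongs to the short-form start and to the neighbouring start at 140.303 kb, which share the interval. The 4 starts further upstream, at 0, 0.049, 80.241 and 91.023 kb, had no peak within 1 kb in any of the 6 libraries. The intron 1 interval at 2.08 kb came within 2 kb of the first of these in all 3 CREBBP-KO libraries.

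Before PTPRE, 3 intervals were gained. The highest, at −17.6 kb (chr10:127887738-127890359), lay in the body of CLRN3, a gene of the clarin family. Its fold was 9.66, 9.70 and 8.42 in CREBBP-KO 1, 2 and 3, a percentile of 82.2 ± 3.25, second only to intron 2 among the gained intervals. The interval at −7.03 kb (chr10:127899602-127901029) had folds of 4.54, 3.87 and 4.35 and a percentile of 52.6 ± 6.20. The one at −43.5 kb (chr10:127862741-127863937) had folds of 3.44, 4.72 and 4.20, and at 48.6 ± 12.2 its percentile spread was wider than that of the others in or before PTPRE. In fold it was not the widest, with an SD of 0.64 against 1.49 at 16.5 kb. The last gained interval was 21876 bp upstream of the first MKI67 start (chr10:128147213-128148588), with folds of 3.62, 3.54 and 5.57 and a percentile of 47.9 ± 14.99, CREBBP-KO 3 standing above the other 2 libraries.

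Of the 10 gained intervals, the 5 of the stricter class lay at mean percentiles of 70.1 to 85.1 and the other 5 at 47.9 to 52.6. That order follows from the definition, since the class was set by fold and the percentile ranks the same fold. Some of the sequence of the gained intervals is not unique on the chromosome. Of 28 stretches of 30 bases from each summit window, 50% were found more than once on chromosome 10 for the intervals at −17.6 and 16.5 kb and 42.9% for the one upstream of MKI67, while 3.57% were for the one at −43.5 kb and none for the other 6; whether this touched the folds was not tested. The median GC content of the 10 windows was 52.2%, against 48.3% over the intervals of the series with a fold of at least 5 in all libraries of a genotype. NF-Y letters stood in 3 of the 10 windows, SP/KLF and CHR in 2 each, and AP-1 and RUNX in 1 each, where 27.03%, 22.3%, 21.3%, 8.84% and 16.7% of those intervals' windows held them. Since 5 of the 10 are not among those intervals, the 3822 gained intervals of the series are a second reference: their median GC content was 47%, and 31.1%, 9.68%, 22.9%, 13.2% and 21.1% of their windows held NF-Y, SP/KLF, CHR, AP-1 and RUNX. None of the 10 held CRE, TEAD, forkhead, ETS or GATA.

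**Figure D2:**
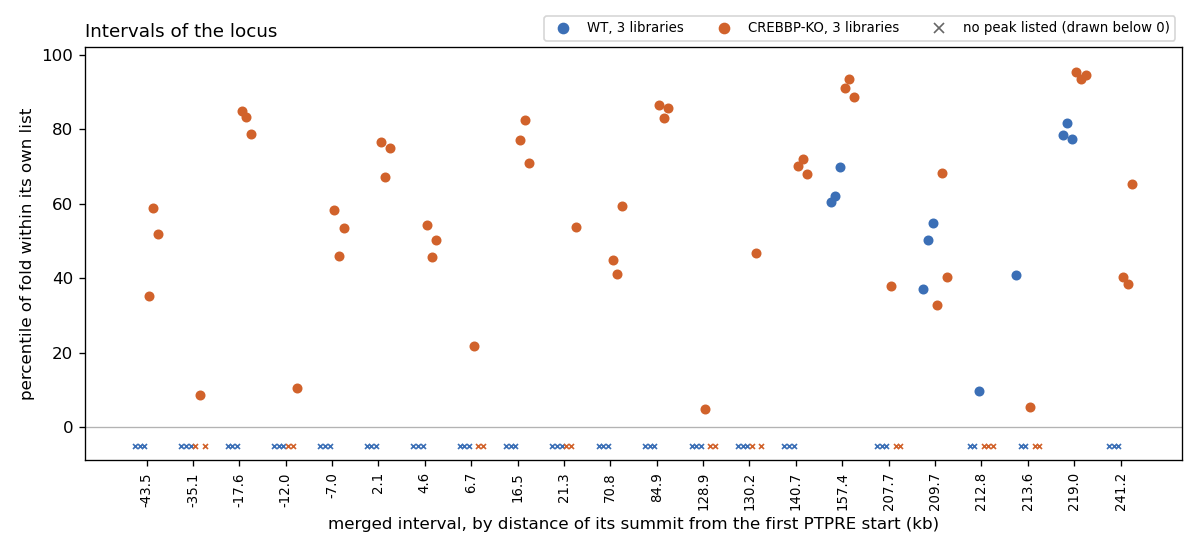
Percentile of fold within its own list for each of the 22 merged intervals in each of the 3 WT (blue) and 3 CREBBP-KO (orange) libraries, ordered by distance of the summit from the first PTPRE start (kb), with crosses below 0 for libraries that list no peak. The 10 gained intervals have 3 orange points and 3 blue crosses, and the intron 2 interval at 84.9 kb lies between 82.9 and 86.6.

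Intron 10 of PTPRE, 157 kb into the gene, held the 1 interval of PTPRE with a peak in WT cells (chr10:128062566-128066064). Its fold was 5.20, 5.42 and 6.71 in WT 1, 2 and 3, and 12.9, 15.8 and 12.9 in CREBBP-KO 1, 2 and 3. Every CREBBP-KO library lay above every WT library. The mean fold was 5.78 ± 0.82 in WT and 13.8 ± 1.67 in CREBBP-KO, 2.40 times as high, and the mean percentile was 64.1 ± 5.02 against 91.0 ± 2.32 (SD, n = 3). In CREBBP-KO it was the highest-ranked interval of PTPRE, above intron 2. It also covered more sequence there, 3061, 2967 and 3334 bp against 1403, 1533 and 1187 bp in WT.

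The MKI67 start (chr10:128121811-128127156) had a peak in every library, with the summit in exon 1. Its fold was 8.38, 9.22 and 8.30 in WT 1, 2 and 3, and 16.9, 15.96 and 17.6 in CREBBP-KO 1, 2 and 3. The groups did not overlap. The mean fold was 8.63 ± 0.51 in WT and 16.8 ± 0.81 in CREBBP-KO, 1.95 times as high, and the percentile was 79.2 ± 2.30 against 94.5 ± 0.907 (SD, n = 3). Its width did not follow its height, since it covered 4290, 5315 and 4404 bp in WT and 4088, 4189 and 5242 bp in CREBBP-KO.

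MKI67 intron 5 (chr10:128115082-128118331) showed no such difference. Its fold was 3.65, 4.35 and 4.86 in WT 1, 2 and 3, and 3.38, 5.85 and 3.59 in CREBBP-KO 1, 2 and 3. The groups overlapped, CREBBP-KO holding both the highest and the lowest value, and the mean percentiles were 47.5 ± 9.26 and 47.1 ± 18.7. Of its summit window, 39.3% of the 30-base stretches were found more than once on the chromosome. Thus 2 of the 3 intervals shared by all libraries were higher in CREBBP-KO without overlap, and 0 were lower. Over the 52187 intervals of the series with a peak in all 6 libraries, 28.9% were higher without overlap and 12.1% lower.

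The model used below for the gene lists took normal scores of rank among its own 34864 intervals, not of the list percentiles. On that scale the intron 10 interval was higher in CREBBP-KO by 1.62 (SE 0.24), above 99.0% of the intervals in the model. The MKI67 start was higher by 1.04 (SE 0.17), above 94.5%. These 2 were the members with a peak in all 6 libraries that passed the fold filter. The median of all intervals was 0.02 and that of intervals at protein-coding starts 0.20.

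**Figure D3:**
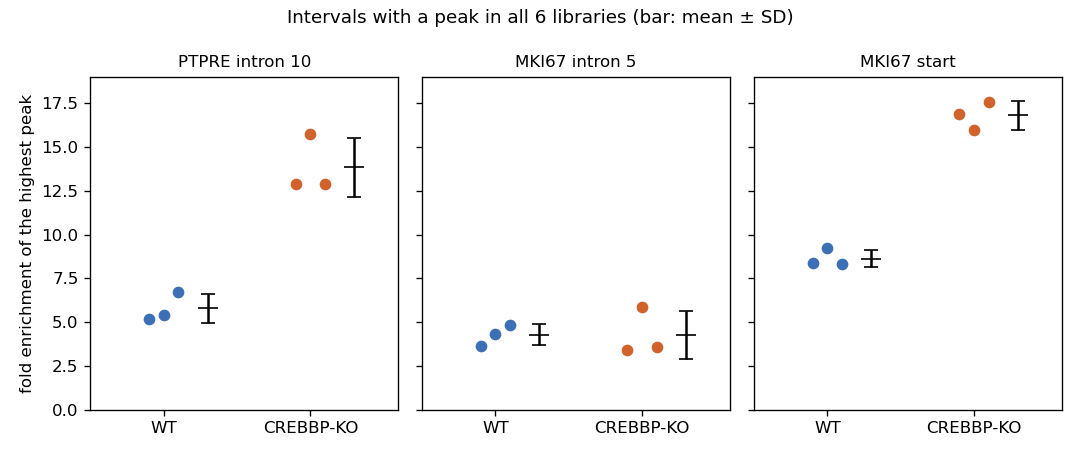
Fold enrichment of the highest peak in the 3 intervals of the locus with a peak in all 6 libraries, for 3 WT (blue) and 3 CREBBP-KO (orange) libraries, with the mean ± SD. Values separate in PTPRE intron 10 (5.20 to 6.71 against 12.9 to 15.8) and at the MKI67 start (8.30 to 9.22 against 15.96 to 17.6), and overlap in MKI67 intron 5.

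The remaining intervals were mostly weak and unrepeated. The 7 listed by a single CREBBP-KO library were the intervals at −35.1, −12.0, 6.71, 21.3, 129 and 130 kb and the one in MKI67 intron 7, with folds of 2.66, 2.66, 3.05, 4.36, 2.54, 3.92 and 3.53. Only the one at 21.3 kb in CREBBP-KO 3 passed the middle of its list, at the 53.7th percentile. MKI67 intron 4 held an interval in WT 3 with a fold of 2.78, and another in WT 1 at 3.79 and in CREBBP-KO 1 at 2.56.

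The WT lists were empty over a long stretch around the gains. Before the intron 10 peak, the last WT peak of any of the 3 libraries ended at 127406120, 501 kb before the first PTPRE start, which leaves 658 kb with no WT peak. In this stretch CREBBP-KO 1, 2 and 3 listed 12, 13 and 11 peaks, and 0 of these lay outside the locus. Beyond MKI67 the next WT peak was 1340 kb away. Of the 27 intervals within 1 Mb before the locus, 1 was gained and 0 were lost, and of the 7 with a peak in all 6 libraries 2 were higher without overlap and 0 lower. No library listed a peak within 1 Mb after it. On the rest of chromosome 10, 216 of 6646 intervals were gained and 61 lost, and on the other chromosomes 3597 of 137065 were gained and 1487 lost.

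**Figure D4:**
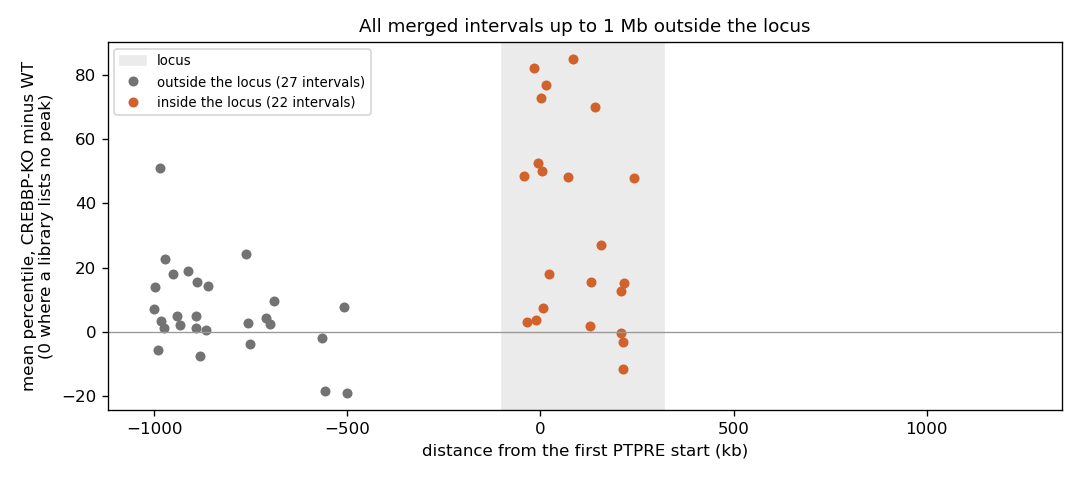
Difference of the mean percentile, CREBBP-KO minus WT, for every merged interval from 1 Mb before to 1 Mb after the locus. A library that lists no peak counts as 0. Points are drawn at interval midpoints, as distance from the first PTPRE start (kb). The 27 grey points before the locus have 1 gained interval among them, the 22 orange points in the shaded locus have 10, and no interval lies in the 1 Mb after it.

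Other genes also held clusters of gained intervals. Of 20033 protein-coding genes, 1886 had at least 1 gained interval in the body and 19 besides PTPRE had at least 6. The most were 14 each in NAV2, ROR2 and TNS3, followed by 12 in FOXO1, named here after their values were seen. Longer genes have more room for intervals, and of the 1097 genes between 143 and 223 kb long, 273 held any and 2, PRR5L with 7 and ENTPD1 with 6, held at least as many as PTPRE.

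PTPRE belongs to the receptor-type tyrosine phosphatases, a family that counters tyrosine kinases at the membrane. Among the 19 other genes of the family, the promoter had a peak in all 6 libraries for 10, in none for 8 and in some for 1, PTPRS, which had a peak in CREBBP-KO 1 and 2 alone. The rank of the promoter interval was tested for 9 with limma, adjusted over all 34864 intervals. In CREBBP-KO 2 were higher and 2 lower, and the median shift was 0.23, beside 25.9% higher and 8.98% lower of all 11570 intervals at protein-coding starts and their median of 0.20. Without a model, 5 of the 10 with a peak in all 6 libraries were higher without overlap and 2 lower. Over all intervals with a peak in all 6, at starts or not, the shares were 28.9% and 12.1%. The shares without overlap at starts alone are not given here. In the model, starts differed from all intervals tested, of which 18.6% were higher and 18.7% lower.

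PTPRF, which encodes the receptor LAR of cell junctions, lay at the 68.3rd, 58.8th and 59.1st percentile in WT 1, 2 and 3 and at the 80.5th, 82.6th and 78.9th in CREBBP-KO 1, 2 and 3. It was higher by 0.95 (SE 0.26, limma adjusted p = 0.00724). PTPRK, a homophilic adhesion receptor, was higher by 0.57 (SE 0.16, limma adjusted p = 0.00683), from 92.9 ± 0.462 to 97.7 ± 0.387. PTPRM, of the same adhesion subfamily, was lower by −0.49 (SE 0.16, limma adjusted p = 0.0195), from 99.1 ± 0.148 to 97.7 ± 0.242. The PTPRM call was lost under 5 of 13 alternatives, among them without CREBBP-KO 2 (adjusted p = 0.0621, limma), CREBBP-KO 3 (0.0568) or WT 2 (0.0531), with a shift of −0.08 when intervals were ranked by −log10 p, and PTPRK lost its call under that ranking alone. Every value of these last 2 genes lay at or above the 92.6th percentile of its list.

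PTPRA, the closest paralogue of PTPRE, lay at the 90.3rd, 91.2nd and 91.1st percentile in WT 1, 2 and 3 and the 87.0th, 85.5th and 88.0th in CREBBP-KO 1, 2 and 3. All 3 CREBBP-KO libraries were below all 3 WT libraries, and the shift was −0.44 (SE 0.17, limma adjusted p = 0.0466). That call did not hold under 11 of 13 alternatives. With intervals ranked by −log10 p the PTPRA shift was −0.07. At the short-form start of PTPRE, with absent WT peaks set to 0, the sign was opposite to that at the PTPRA promoter. The first PTPRE start had no peak within 1 kb in any library. PTPRE was chosen for its own sign, and the difference between the 2 genes was not tested.

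MKI67 was set beside 25 other genes of proliferation, which encode cyclins, mitotic kinases, replication factors and enzymes of nucleotide synthesis. The promoter had a peak in all 6 libraries for all 25, and all were tested. In CREBBP-KO 10 were higher and 2 lower, with a median shift of 0.30, beside the same 25.9% and 8.98% of all starts. Without a model, the percentiles of 17 were higher without overlap and those of 1 lower. Over all intervals with a peak in all 6 libraries, at starts or not, the shares were 28.9% and 12.1%. They are not a like reference for promoters, since the shares without overlap at starts alone are not given here.

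The largest upward shift in the main model was that of PLK1, a kinase of mitotic entry and spindle assembly. It lay at the 70.4th, 54.6th and 65.7th percentile in WT 1, 2 and 3 and the 86.7th, 87.8th and 87.3rd in CREBBP-KO 1, 2 and 3. The shift was 1.31 (SE 0.26, limma adjusted p = 0.000532). Its lead depended on the setting. Without the fold filter the shift was 0.909 for PLK1 and 0.918 for CDC20, and when ranked by −log10 p 0.633 and 0.760. The calls of both held under all 13 alternatives. MCM5, a subunit of the replicative helicase, was higher by 1.21 (SE 0.21, limma adjusted p = 0.000167), from 71.4 ± 4.59 to 91.5 ± 1.79. CDC20, an activator of the anaphase-promoting complex, was higher by 1.08 (SE 0.19, limma adjusted p = 0.000204), from 83.4 ± 3.93 to 96.4 ± 2.42. The shift of the MKI67 start was 1.04, and the median of the list was 0.30. PLK1, MCM5 and CDC20 were named for the largest upward shifts and the MKI67 locus was chosen on this contrast, so their likeness in size carries no weight. The other genes that passed were BIRC5, CCNB2, TPX2, CDK1, CCNB1, AURKB and PCNA, at 0.97, 0.94, 0.90, 0.83, 0.80, 0.59 and 0.52.

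E2F1 and TYMS, the genes that were lower, both lost the call when intervals were ranked by −log10 p, which left 9 higher and 0 lower. E2F1, a transcription factor of S-phase entry, lay at the 76.9th, 85.9th and 86.0th percentile in WT 1, 2 and 3 and the 69.8th, 80.1st and 72.1st in CREBBP-KO 1, 2 and 3. Its groups overlapped on this scale, and the shift was −0.80 (SE 0.26, limma adjusted p = 0.0173). TYMS, which makes thymidylate, was lower by −0.64 (SE 0.19, limma adjusted p = 0.0108), from 90.6 ± 3.44 to 84.1 ± 1.65. E2F1 lost its call under 4 of 13 alternatives, among them without CREBBP-KO 1 (adjusted p = 0.0872, limma), WT 2 (0.0702) or WT 3 (0.0763), and TYMS under 2, the other being without WT 1 (0.0630). The other 13, among them TOP2A at 0.03 (SE 0.16) and FOXM1 at 0.11 (SE 0.17), did not pass.

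**Figure D5:**
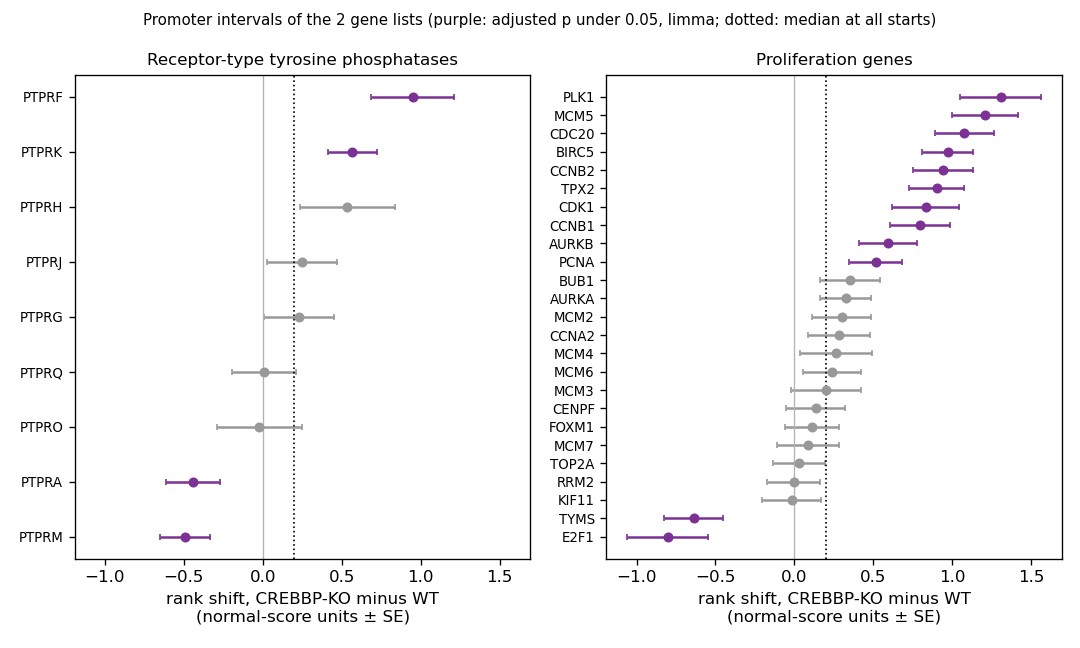
Shift in rank of the promoter interval, CREBBP-KO minus WT, in normal-score units with its SE (3 libraries per genotype), for 9 receptor-type tyrosine phosphatases and 25 proliferation genes; purple marks a limma adjusted p under 0.05 and the dotted line the median of all intervals at starts, 0.20. Both signs occur in each list, from PLK1 at 1.31 to E2F1 at −0.80.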

How the data were processed

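The data were 3 WT and 3 CREBBP-KO peak lists of H3K27ac ChIP-seq, and the 2 input libraries were not used here. For each library the authors ran nf-core's ChIP-seq workflow on hg38, with MACS2 set to narrow peaks, and BWA is named in the submitters' processing notes. Reads were downsampled before a repeat run; which run gave these lists, and which input was the control, is not given in the sources used here. The fold of each peak, as the authors deposited it, is a linear ratio over local background, the deposited −log10 p and −log10 q give its significance, with a smallest −log10 q of 1.3 (a q-value of 0.05), and the deposited score was not used. The lists hold no counts, the depth behind each is not given in the sources used here, and no counting interval was computed.

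Overlapping or touching peaks were merged across the lists and placed on GENCODE release 44, the furthest peak of each of 24 chromosomes lying within the reference length. An interval's value in a library is its highest fold, and percentiles are ranks within the list. A promoter value is the highest peak within 1 kb of a protein-coding start. The model used 34864 intervals with a fold of at least 5 in all 3 libraries of a genotype and a peak in all 6. Ranks were taken anew among these intervals in each library, so shifts and list percentiles are on different scales. Normal scores of those new ranks were compared between genotypes by limma (lmFit, then eBayes with its trend option). The p-values were adjusted by Benjamini-Hochberg, with a threshold of 0.05. The code was tested on simulated data. Named intervals were those at starts, gained, lost or shared by all libraries, and named genes up to 3 called in each direction per list, plus PTPRA. The locus, its members and the gene lists were chosen with earlier results of these data known. The count over the intestinal marker list is not reported here. The software was limma 3.58.1 in R 4.3.3 and, in Python 3.11.15, pandas 2.3.3, numpy 2.4.6, matplotlib 3.10.9 and scipy 1.17.1, with bedtools 2.31.1 for a check of the merge.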

Additional observations from a re-analysis of the deposited data

How the results depend on the processing

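Of 82 alternative values for the summaries of the locus and lists, 69 stayed within the spread or within 1.5 times the count, 13 moved and 0 changed direction. The CREBBP-KO excess of 14 peaks per library was 10 with −log10 q of at least 5, 6 with a fold of at least 5, 12.3 with lists of the same length and 9.33 without the flanks. The 10 gained intervals became 5 with a fold of at least 5 and 6 without the flanks. The PTPRE promoter difference of 70.1 percentile points was 63.5 with lists of the same length and 74.5 within 2 kb of a start, and the MKI67 difference of 15.3 was 9.71 under ranking by −log10 p. The 74.5 rests in part on another interval. Within 2 kb of a start, the highest PTPRE peak in CREBBP-KO 1 and 3 was that of intron 1, at the 76.6th and 74.9th percentile. In CREBBP-KO 2 it was still that of the short-form start, at the 72.1st. The cause of the other moves was not tested, except that a stricter threshold or a smaller region holds fewer peaks. Calls among the phosphatases numbered 4, and 2 without the trend and 1 when ranked by −log10 p.

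Leaving out 1 library at a time, the excess of peaks was 13.5 to 15, gained intervals 10 to 11, intervals higher without overlap 2 in every case, the PTPRE difference 69.1 to 71.1, the MKI67 difference 14.4 to 16.6, phosphatase calls 2 to 5 and proliferation calls 9 to 11. Phosphatase calls fell to 2 without WT 2 and to 2 without CREBBP-KO 2. With the replicate number as a block, 3 phosphatase and 12 proliferation calls were made, against 4 and 12 without it. The numbers were not taken to pair the libraries: deviations from the group means correlated at 0.011, 0.014 and 0.028 between libraries of the same number, and WT 1 correlated best with CREBBP-KO 2. Of 117 alternatives for the single genes named, 94 kept their call, 23 lost it and 0 changed sign. With 3 libraries per genotype, 1 peak list each and no read counts, a peak missing from a list may lie just under the calling threshold, and how much signal it held cannot be measured here.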
